A study of Mus musculus with 6 samples.

Results

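The genes described here encode the proteins that hold together the perineuronal net, the dense extracellular matrix around certain neurons, and the looser matrix of chondroitin sulfate between brain cells. They are 10 genes, taken by symbol from the 24421 rows of the deposited count table. They comprise 4 lecticans (Acan, Bcan, Ncan, Vcan), 3 link proteins (Hapln1, Hapln2, Hapln4), 2 tenascins (Tnr, Tnc) and the receptor phosphatase Ptprz1. All 10 were found in the table and all 10 had enough counts to be tested.

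The lecticans are core proteins that carry chondroitin sulfate chains. They bind the polysaccharide hyaluronan at one end and tenascins at the other, and link proteins clamp the lectican to the hyaluronan. In cortex these nets surround mainly parvalbumin interneurons, while after injury astrocytes and oligodendrocyte precursors lay down chondroitin sulfate matrix in and around the scar, where it hinders axon growth.

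RNA was sequenced from cortex of C57BL/6 mice that had all undergone middle cerebral artery occlusion, or MCAO, which models ischaemic stroke by blocking a vessel of the brain. The GFP group (3 samples) was given green fluorescent protein as the control, and the NeuroD1 group (3 samples) was given NeuroD1, a basic helix-loop-helix factor of neuron differentiation. No uninjured or untreated group is among the samples, so the values compare the treatments within injured cortex. The sources used here do not give the vector, the cells it targets, the time after occlusion, or the age and sex of the mice. Separate mice are not stated for the numbered samples, so the p-values cover the spread among samples, some of which may be technical.

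Levels are given as CPM, which divides each count by its library's TMM-adjusted total. Libraries held 7753101 to 9698795 counts in the GFP group and 10843273 to 13440244 in the NeuroD1 group. Counts of Neurod1 itself were 64, 29 and 50 with GFP and 644, 151 and 428 with NeuroD1, in replicate order. The cortical excitatory neuron gene Slc17a7 and the other 9 neuron markers were detected, and the summed neuron markers overlapped between groups (4648 to 9172 CPM with GFP and 3263 to 8480 with NeuroD1). The ribosomal RNA gene Rn45s took 7.25% of counts in GFP replicate 2 and 0.22 to 1.22% in the other libraries. Summed choroid plexus markers were highest in GFP replicate 2 as well, at 809 CPM against 14.4 to 133 CPM in the others. Libraries also differed in how well long transcripts were represented. With genes ranked by transcript length into 5 equal bins, the median log2 deviation of the longest bin minus that of the shortest was 0.11, -0.52 and -0.39 in GFP replicates 1 to 3 and 0.57, 0.081 and 0.12 in NeuroD1 replicates 1 to 3. Long transcripts therefore took a larger share mostly in the NeuroD1 libraries, with GFP replicate 1 lying among them.

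Bcan and Hapln2, which encode brevican and a link protein of myelinated axons, were lower with NeuroD1, by 2.28-fold and 2.90-fold. Vcan and Tnc, which encode versican and tenascin-C, were higher by 1.85-fold and 1.57-fold, and for these 4 genes the groups did not overlap. Tnr, which encodes tenascin-R, was 3.46-fold higher on average but its groups overlapped. Acan, Ncan, Hapln1, Hapln4 and Ptprz1 had overlapping groups and an unadjusted p above 0.05. No member passed the edgeR quasi-likelihood test after Benjamini-Hochberg adjustment over all 14852 tested genes, and neither did any other gene (0 called, or 0.00%; smallest adjusted p = 0.136). At an unadjusted p under 0.05 were 5 of the 10 members, 3 higher (12.5% of all tested genes) and 2 lower (11.5% of all), against 3564 genes or 24.0% in either direction. The 5 became 3 (Bcan, Vcan and Hapln2) when GFP replicate 2, NeuroD1 replicate 1 or NeuroD1 replicate 3 was left out. The groups did not overlap in 4 members, 2 higher (14.2% of all tested genes) and 2 lower (15.3% of all), against 29.6% of all in either direction. The median log2 fold change was 0.38 over the members and 0.024 over all tested genes, and the member median was 0.18 with offsets for transcript length and GC content. DESeq2 called Bcan, Vcan and Hapln2 among 1404 genes, 9.46% of those it adjusted, while limma-voom called 0 (0.00%). With GFP replicate 2 or NeuroD1 replicate 1 left out, DESeq2 called 0 of these 3 genes, and with GFP replicate 3 left out it called Bcan alone (adjusted p = 0.0314, against 0.0801 for Hapln2 and 0.141 for Vcan). In bulk tissue, fewer cells of a type and less RNA per cell cannot be told apart.

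**Figure D1:**
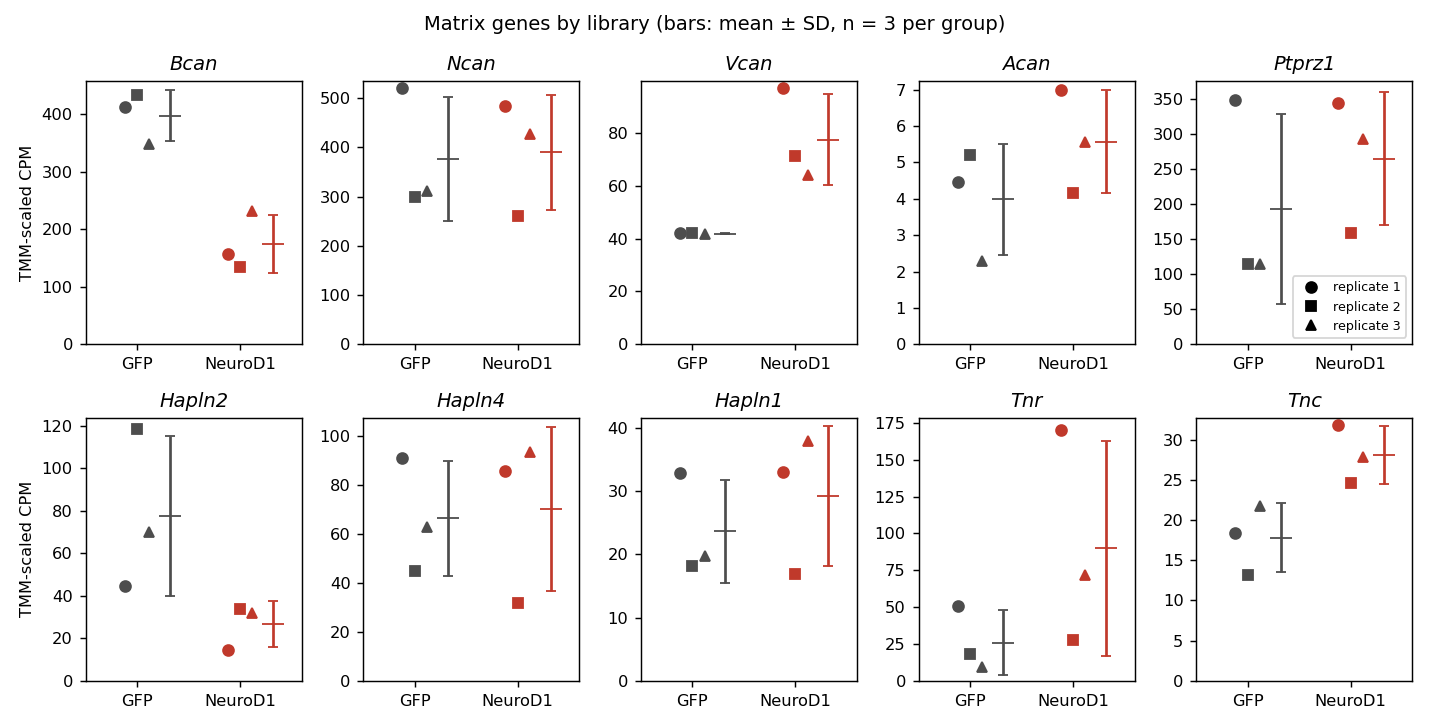
Level of each gene in TMM-scaled CPM (y axis, from 0) in each library of the GFP (grey) and NeuroD1 (red) groups, with marker shapes for replicate numbers and bars for mean ± SD (n = 3). The groups are apart for Bcan, Hapln2, Vcan and Tnc and overlap for the other 6 genes.

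The start sites of the 4 genes whose groups did not overlap are shown because NeuroD1 is known to bind E-boxes, short sites of the form CANNTG, mostly as CAGATG or CAGCTG. Each window is RefSeq sequence of build GRCm38.p6, 250 bases before to 50 after a start site, written 5′ to 3′ on the gene's strand with every CANNTG match in capitals.
Bcan promoter, chr3:88000307-88000606, minus strand: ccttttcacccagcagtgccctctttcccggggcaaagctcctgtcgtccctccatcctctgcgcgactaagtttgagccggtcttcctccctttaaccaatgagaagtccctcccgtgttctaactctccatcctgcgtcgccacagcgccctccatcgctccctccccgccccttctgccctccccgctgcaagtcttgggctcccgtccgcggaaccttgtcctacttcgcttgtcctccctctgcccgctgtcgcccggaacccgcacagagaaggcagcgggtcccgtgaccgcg
Hapln2 promoter, chr3:88027462-88027761, minus strand: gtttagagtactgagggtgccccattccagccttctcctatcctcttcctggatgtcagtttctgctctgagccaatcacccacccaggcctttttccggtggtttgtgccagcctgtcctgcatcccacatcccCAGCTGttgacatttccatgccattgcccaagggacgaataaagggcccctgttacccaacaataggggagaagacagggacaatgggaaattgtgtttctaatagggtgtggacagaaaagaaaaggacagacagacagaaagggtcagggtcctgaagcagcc
Vcan promoter, chr13:89742463-89742762, minus strand: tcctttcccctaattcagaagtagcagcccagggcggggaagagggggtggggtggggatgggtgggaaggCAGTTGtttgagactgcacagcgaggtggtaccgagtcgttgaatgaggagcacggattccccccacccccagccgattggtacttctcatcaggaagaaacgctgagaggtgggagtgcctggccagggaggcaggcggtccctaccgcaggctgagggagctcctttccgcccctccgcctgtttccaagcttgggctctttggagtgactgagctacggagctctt
Tnc promoter, chr4:64046966-64047265, minus strand: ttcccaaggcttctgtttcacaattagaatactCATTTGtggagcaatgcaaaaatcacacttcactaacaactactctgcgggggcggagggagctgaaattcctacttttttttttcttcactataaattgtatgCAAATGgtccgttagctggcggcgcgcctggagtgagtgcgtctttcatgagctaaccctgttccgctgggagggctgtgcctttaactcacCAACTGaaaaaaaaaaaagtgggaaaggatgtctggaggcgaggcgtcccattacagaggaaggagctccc
Hapln2 and Vcan each held 1 CANNTG match, Tnc held 3 and Bcan held 0. The Bcan window uses a RefSeq start site at 88000356 and lies wholly upstream of the GENCODE gene, which starts at 88000230. Its count therefore holds for that window only. Tnc had 2 windows, and only the window nearest its GENCODE start was read. The match in Hapln2 was CAGCTG, which reads the same on both strands and is also counted as a CANNTG. Windows were matched for 9 of the 10 members, and 5 of them held CANNTG, 3 held CAGCTG and 0 held CAGATG or its reverse complement CATCTG. The Acan window, which held 1 CAGCTG, ends at 79053275, upstream of the GENCODE gene start at 79053483. The Hapln1 window uses a RefSeq start site at 89540636 and lies wholly inside the GENCODE gene, which starts at 89539796. The counts over members hold for these windows only. Among all 32851 windows of the same length, 72.3% held CANNTG, 16.3% held CAGCTG and 17.2% held CAGATG on either strand. These are matches of letters in a short window and do not show binding.

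Levels per kilobase of annotated exon ranked the genes by their mean over the libraries of a group. With GFP the order was Bcan (97.9 ± 10.9 CPM per kb, SD, n = 3), Ncan (52.4 ± 17.4), Hapln2 (32.7 ± 15.8), Hapln4 (16.9 ± 5.96), Ptprz1 (13.5 ± 9.50), Hapln1 (4.002 ± 1.37), Vcan (2.90 ± 0.0088), Tnc (2.29 ± 0.552), Tnr (2.02 ± 1.70) and Acan (0.533 ± 0.204). The libraries of Ncan and Hapln2 overlapped, as did those of Hapln2, Hapln4 and Ptprz1 with one another. Those of Tnr overlapped with Hapln1, with Vcan and with Tnc. With NeuroD1 Ncan came first (54.2 ± 16.2 CPM per kb), ahead of Bcan (42.9 ± 12.6), with overlapping libraries, and Hapln2 (11.3 ± 4.51) came behind Ptprz1 (18.6 ± 6.69) and Hapln4 (17.9 ± 8.56) by its mean. The libraries of these 3 genes overlapped. Acan, the lectican most closely tied to perineuronal nets, was the scarcest of the 10 in both groups, with 21 to 93 counts per library.

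Among the lecticans, Bcan (chromosome 3, 87987531 to 88000230, minus strand) encodes brevican, a proteoglycan of mature brain made by astrocytes, oligodendrocyte precursors and neurons and concentrated around synapses. It stood at 412, 433 and 348 CPM in GFP replicates 1, 2 and 3 and at 157, 134 and 232 CPM in NeuroD1 replicates 1, 2 and 3. Every NeuroD1 library lay below every GFP library. The log2 fold change was -1.19 (SE 0.27; edgeR unadjusted p = 0.00199, adjusted p = 0.136), and 3.76% of tested genes had a lower value. It was -0.94 with offsets for transcript length and GC content, and between -1.44 and -1.03 with any library left out. DESeq2 gave an adjusted p of 0.0023, and the adjusted p ranged from 4.39e-06 to 0.412 over the alternatives tried. Brevican has a secreted and a membrane-anchored form, which counts per gene do not separate.

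Vcan (chromosome 13, 89655312 to 89742509, minus strand) encodes versican, made in brain largely by oligodendrocyte precursors and elsewhere by fibroblasts. It stood at 42.0, 42.1 and 41.8 CPM in the GFP libraries and at 97.1, 71.5 and 64.4 CPM in NeuroD1 replicates 1, 2 and 3. The GFP libraries were nearly level and every NeuroD1 library lay above them. The log2 fold change was 0.89 (SE 0.21; edgeR unadjusted p = 0.00252, adjusted p = 0.136), and 0.46 with the length and GC offsets (unadjusted p = 0.0419). Vcan has the longest exon total of the members, 14462 bases. DESeq2 gave an adjusted p of 0.0092, and the adjusted p ranged from 0.00484 to 0.412 over the alternatives tried.

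Ncan (chromosome 8, 70093085 to 70120873, minus strand) encodes neurocan, which is abundant in developing brain and is known to increase around injuries. It stood at 521, 298 and 311 CPM in the GFP libraries and at 484, 260 and 426 CPM in the NeuroD1 libraries. The groups overlapped throughout, with a log2 fold change of 0.049 (SE 0.33; unadjusted p = 0.885, adjusted p = 0.939) whose sign changed with the scaling. Acan (chromosome 7, 79053483 to 79115099, plus strand) encodes aggrecan, without which perineuronal nets do not form. It stood at 4.46, 5.21 and 2.28 CPM with GFP and at 7.004, 4.16 and 5.56 CPM with NeuroD1. The groups overlapped, and the log2 fold change was 0.49 (SE 0.39; unadjusted p = 0.242, adjusted p = 0.444). Pvalb, the parvalbumin gene, stood at 54.9, 38.1 and 44.7 CPM with GFP and 21.5, 40.4 and 25.04 CPM with NeuroD1. The log2 ratio of Acan to Pvalb was -3.62, -2.87 and -4.29 with GFP and -1.62, -3.28 and -2.17 with NeuroD1. NeuroD1 replicate 2 lay within the GFP range of this ratio and the other NeuroD1 libraries above it. Pvalb, which was lower, belongs to a list of 10 parvalbumin interneuron markers, of which 6 had higher and 4 lower fitted levels. Their summed level overlapped between groups (412 to 736 CPM with GFP and 289 to 628 with NeuroD1). Ratios of Acan to the other markers were not computed.

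Within each library the make-up of the lectican pool also differed, a measure that does not depend on how libraries are scaled and that was added after the levels were seen. Per kilobase, brevican RNA made up 57.2, 70.3 and 64.9% of the pool in the GFP libraries and 34.1, 44.2 and 46.9% in the NeuroD1 libraries. Neurocan RNA made up 40.8, 27.3 and 32.7% with GFP and 59.2, 48.5 and 48.8% with NeuroD1. Versican RNA made up 1.92 ± 0.276% with GFP and 5.40 ± 1.55% with NeuroD1, and aggrecan RNA 0.342 ± 0.114% and 0.729 ± 0.107% (SD, n = 3). For each of the 4 lecticans the shares of the groups did not overlap. Bcan has the shortest exon total of the 4, at 4064 bases, against 7195 for Ncan, 7469 for Acan and 14462 for Vcan. The shares were not adjusted for the difference among libraries in how well long transcripts were represented. Shares add up to the whole, so a lower Bcan level alone lifts the share of the other 3 genes, and Ncan had nearly the same mean CPM in both groups.

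**Figure D2:**
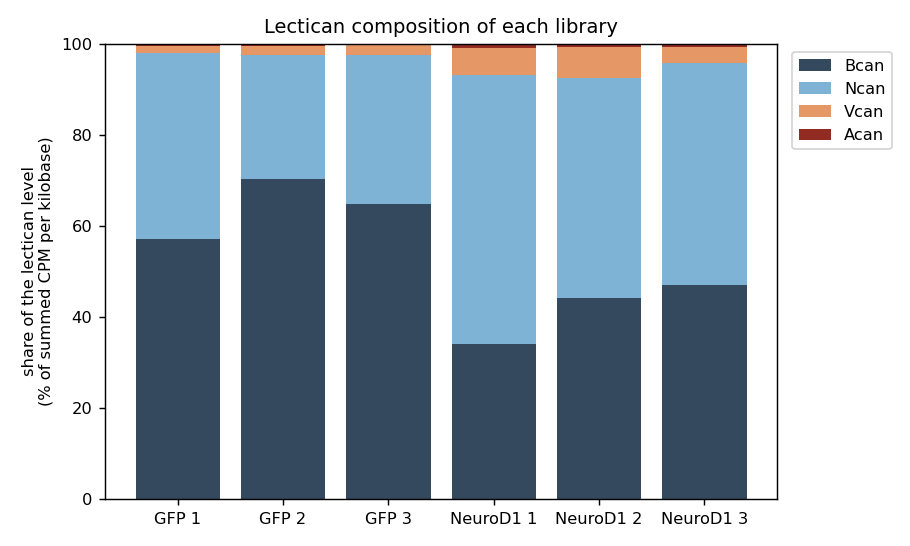
Share of each lectican (y axis, percent of summed CPM per kilobase of exon) in each library (x axis). Bcan holds 57.2 to 70.3% of the pool in the GFP libraries and 34.1 to 46.9% in the NeuroD1 libraries.

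Among the link proteins, Hapln2 (chromosome 3, 88021750 to 88027583, minus strand) encodes Bral1, which oligodendrocytes make and which gathers matrix at the nodes of Ranvier. It stood at 44.7, 118 and 69.8 CPM in GFP replicates 1, 2 and 3 and at 14.5, 33.96 and 32.0 CPM in NeuroD1 replicates 1, 2 and 3. Every NeuroD1 library lay below every GFP library, although the GFP libraries themselves spread 2.65-fold. The log2 fold change was -1.53 (SE 0.42; edgeR unadjusted p = 0.00619, adjusted p = 0.138), with 1.70% of tested genes lower. It was -1.28 with the length and GC offsets. Without GFP replicate 2, the highest library and the one with the largest Rn45s share, it was -1.09. DESeq2 gave an adjusted p of 0.0157, and the adjusted p ranged from 0.00143 to 0.412 over the alternatives tried.

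The markers of mature oligodendrocytes moved with Hapln2. Of 10 markers, 9 had lower fitted levels with NeuroD1 and 4, all lower, were at an unadjusted p under 0.05 (11.5% of all tested genes were lower at that threshold). Their summed level was 11020.5 to 21074 CPM with GFP and 7187 to 9614 CPM with NeuroD1, and 0 of the 10 were at 0 in all libraries. The myelin gene Mog stood at 106, 173 and 115 CPM with GFP and 70.5, 88.7 and 86.8 CPM with NeuroD1. The log2 ratio of Hapln2 to Mog was -1.25, -0.55 and -0.72 with GFP and -2.28, -1.39 and -1.44 with NeuroD1. The groups did not overlap in this ratio, with means 0.86 apart, but the result depended on the marker chosen. Over the 10 markers, a comparison added after the levels were seen, the ratio of Hapln2 to the marker was lower in every NeuroD1 library for 4 and overlapped for 6, among them the myelin genes Mbp and Mobp. The log2 ratio to Mobp was -3.60, -3.30 and -2.94 with GFP and -4.05, -3.14 and -3.71 with NeuroD1. The difference in mean log2 ratio ran from -1.84 (Cldn11) to -0.35 (Mobp). The part of oligodendrocyte content in the Hapln2 level was not tested.

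Hapln1 (chromosome 13, 89539796 to 89611652, plus strand) encodes the link protein that cortical neurons add when a net forms. It stood at 32.9, 18.2 and 19.8 CPM with GFP and at 33.1, 16.8 and 38.0 CPM with NeuroD1. Hapln4 (chromosome 8, 70083457 to 70090862, plus strand) encodes Bral2, a brain link protein that partners brevican. It stood at 91.1, 44.7 and 63.0 CPM with GFP and at 85.7, 31.6 and 93.3 CPM with NeuroD1. Both genes overlapped between groups, and NeuroD1 replicate 2 was the lowest of the 6 libraries for each. Their log2 fold changes were 0.31 (SE 0.35, adjusted p = 0.599) for Hapln1 and 0.082 (SE 0.41, adjusted p = 0.917) for Hapln4 by edgeR, and the sign of Hapln4 changed under 8 of 21 settings and that of Hapln1 under 1, the length and GC offsets.

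These genes sit in pairs of a link protein and a lectican with 0 protein-coding genes between them. Bcan and Hapln2 lie 21519 bases apart on the same strand of chromosome 3, and both were lower with NeuroD1. Ncan and Hapln4 lie 2222 bases apart on chromosome 8, and both had overlapping groups. Vcan and Hapln1 lie 43659 bases apart on chromosome 13, where Vcan had a log2 fold change of 0.89 and Hapln1 of 0.31. Hapln3, a link protein gene that is not a member, had a mean of 0.830 CPM with GFP and 0.872 CPM with NeuroD1.

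Among the tenascins, which cross-link lecticans, Tnr (chromosome 1, 159523769 to 159931729, plus strand) encodes tenascin-R, made by oligodendrocytes and some neurons. It stood at 50.7, 18.0 and 9.13 CPM in GFP replicates 1, 2 and 3 and at 170, 28.0 and 71.7 CPM in NeuroD1 replicates 1, 2 and 3. NeuroD1 replicate 2 lay below GFP replicate 1, and the 6 libraries spanned 18.6-fold, the widest span of the 10 genes. The log2 fold change was 1.79 (SE 0.74; edgeR unadjusted p = 0.0403, adjusted p = 0.192). It was 0.94 without NeuroD1 replicate 1 (unadjusted p = 0.2), 2.72 without GFP replicate 1 and 1.51 with the length and GC offsets. Tnr was highest in NeuroD1 replicate 1, the library in which long transcripts were most represented, and its exon total is 12867 bases. Apart from the fit with offsets, the part of transcript length in the Tnr level was not tested.

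Tnc (chromosome 4, 63959785 to 64047015, minus strand) encodes tenascin-C, a matrix protein of development and of reactive tissue. It stood at 18.4, 13.2 and 21.7 CPM with GFP and at 31.8, 24.6 and 27.8 CPM with NeuroD1. Every NeuroD1 library lay above every GFP library. The log2 fold change was 0.66 (SE 0.24; edgeR unadjusted p = 0.0267, adjusted p = 0.17), and 0.49 with the length and GC offsets (unadjusted p = 0.0667). The log2 ratio of Tnc to Tnr was -1.46, -0.45 and 1.25 with GFP and -2.42, -0.19 and -1.37 with NeuroD1, so the balance of the tenascins overlapped between groups.

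Ptprz1 (chromosome 6, 22875502 to 23052916, plus strand) encodes a receptor tyrosine phosphatase of astrocytes and oligodendrocyte precursors, whose secreted form is the proteoglycan phosphacan. It stood at 349, 115 and 114 CPM in GFP replicates 1, 2 and 3 and at 343, 159 and 292 CPM in NeuroD1 replicates 1, 2 and 3. GFP replicate 1 was the highest of the 6 libraries, so the groups overlapped. The log2 fold change was 0.46 (SE 0.49; edgeR adjusted p = 0.569), and 1.19 without GFP replicate 1 (adjusted p = 0.111, against 0.0184 to 0.89 over the alternatives tried).

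**Figure D3:**
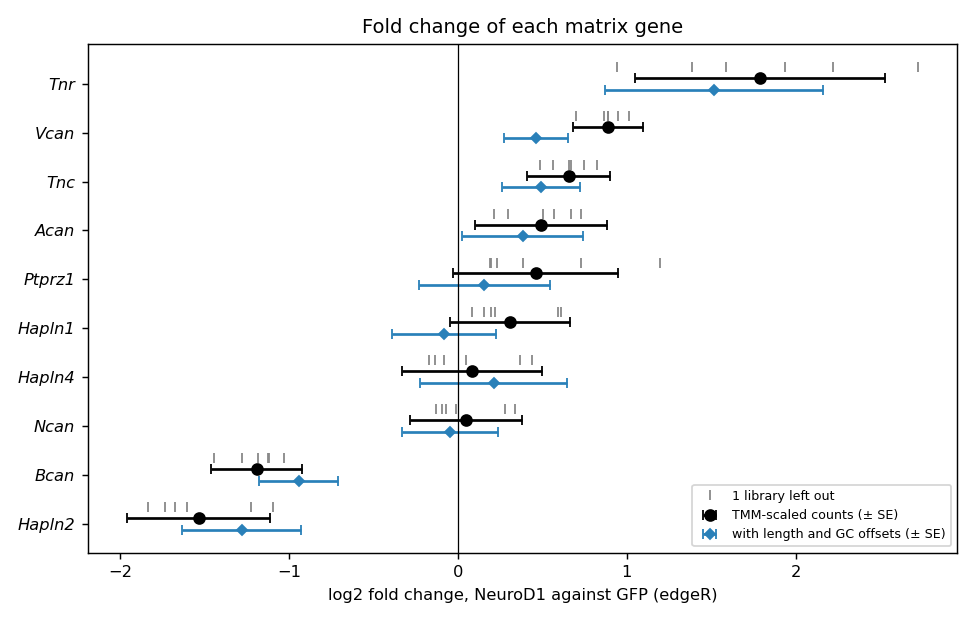
Log2 fold change of each gene, NeuroD1 against GFP (x axis), by edgeR on TMM-scaled counts (black, ± SE), with offsets for transcript length and GC (blue, ± SE) and with each library left out (grey ticks). Bcan and Hapln2 stay below 0 and Tnr, Vcan, Tnc, Acan and Ptprz1 above 0 in all fits drawn, while ticks or offsets of Hapln1, Hapln4 and Ncan cross 0.

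Levels of other cell type markers stood beside these genes as follows. Of 10 astrocyte markers, 8 had lower fitted levels with NeuroD1 and 2, all lower, were at an unadjusted p under 0.05. Of all tested genes, 11.5% were lower at that threshold and 24.0% were past it in either direction. Summed astrocyte markers stood at 9468 to 15880.1 CPM with GFP and 5697 to 10401 CPM with NeuroD1. The astrocyte filament gene Gfap stood at 5669, 6231 and 4660 CPM with GFP and 3157, 1814 and 3709 CPM with NeuroD1, so it was lower in every NeuroD1 library, as Bcan was. The log2 ratio of Bcan to Gfap overlapped between groups (-3.85 to -3.74 with GFP and -4.33 to -3.76 with NeuroD1), as did its ratio to Aldoc. For the other 8 of the 10 astrocyte markers, again compared after the levels were seen, the ratio was lower in every NeuroD1 library, and for the gap junction gene Gja1 the log2 ratio was -0.42, 0.52 and 0.0072 with GFP and -1.11, -1.45 and -0.83 with NeuroD1. Of 9 oligodendrocyte precursor markers 4 were higher and 5 lower, and their summed level overlapped (551 to 599 CPM against 518 to 843). Pdgfra, the growth factor receptor that marks these precursors and also fibroblasts, stood at 68.4, 41.0 and 46.5 CPM with GFP and 122, 143 and 82.8 CPM with NeuroD1, apart between groups as Vcan was.

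Of 9 tested fibroblast markers 8 had higher fitted levels, 7 of them at an unadjusted p under 0.05 (12.5% of all tested genes were higher at that threshold), with summed levels of 1118 to 1994 CPM against 1867 to 7227, and the collagen gene Col1a1 stood at 241, 303 and 578 CPM with GFP and 1045, 2227 and 435 CPM with NeuroD1. All 10 cell cycle markers had higher fitted levels, 8 of them at an unadjusted p under 0.05 (12.5% of all tested genes). In 7 the groups were also apart (14.2% of all tested genes were higher with groups apart). Their sums were 157 to 208 CPM with GFP and 257 to 897 with NeuroD1. The proliferation marker Mki67 was lowest in the NeuroD1 group at 85.3 CPM in replicate 3 and highest with GFP at 64.5 CPM. Infiltrating myeloid markers summed to 843 to 2245 CPM with GFP and 2636 to 8169 with NeuroD1, and endothelial markers to 546 to 787 and 210 to 424. No marker of these lists was at 0 in all 6 libraries. Fibroblast, myeloid and cell cycle sums were highest in NeuroD1 replicate 2. Vcan and Tnc were highest in NeuroD1 replicate 1, and NeuroD1 replicate 2 had rank 2 for Vcan and rank 3 for Tnc. The part of these cell types in the levels of Bcan, Vcan and Tnc was not tested.

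**Figure D4:**
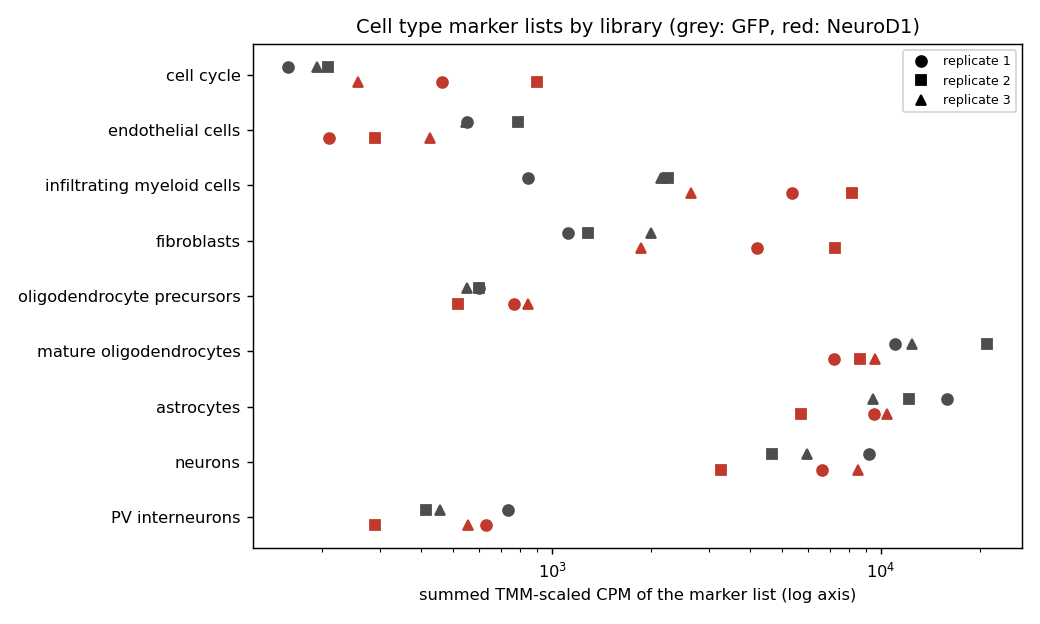
Summed TMM-scaled CPM of each marker list (x axis, log scale) in each library, GFP in grey and NeuroD1 in red, with marker shapes for replicate numbers. Mature oligodendrocyte and endothelial sums are lower and myeloid and cell cycle sums higher in all NeuroD1 libraries, and the other lists overlap.

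Enzymes that build chondroitin sulfate chains were examined next. Of 23 listed genes 22 were tested, 19 had higher and 3 lower fitted levels, and 5 higher and 1 lower were at an unadjusted p under 0.05 (27.3%, close to the 24.0% of all genes). The list median was 0.51. The count of 6 was 3 without GFP replicate 2 or 3 and 10 without GFP replicate 1. Dse, an epimerase that turns chondroitin into dermatan sulfate, stood at 17.4, 10.3 and 14.1 CPM with GFP and 50.7, 70.7 and 26.2 CPM with NeuroD1, a log2 fold change of 1.81 (SE 0.37). Chst15, which makes the disulfated E-type unit of the chain, stood at 22.1, 17.5 and 18.1 CPM with GFP and 50.7, 44.9 and 29.3 CPM with NeuroD1 (log2 fold change 1.11, SE 0.25). B3gat3, which completes the linker that joins a chain to its core protein, went the other way, at 147, 139 and 145 CPM against 84.2, 82.4 and 111 CPM (log2 fold change -0.63, SE 0.20). For each of these enzymes the groups did not overlap, and the edgeR adjusted p was 0.136, 0.136 and 0.145 in that order.

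Hyaluronan, the backbone of the net, is spun out by Has enzymes. Of 16 listed hyaluronan genes 14 were tested, with a median log2 fold change of 0.77. At an unadjusted p under 0.05 were 7, all higher, where 12.5% of all tested genes were higher (24.0% in either direction). The count was 4 without GFP replicate 3 or NeuroD1 replicate 2, and 3 with the length and GC offsets. Hmmr, a hyaluronan receptor that is also a gene of dividing cells, had a log2 fold change of 1.82 (SE 0.41). Cd44, the main hyaluronan receptor of astrocytes and leukocytes, stood at 53.3, 46.9 and 55.1 CPM with GFP and 123, 189 and 79.3 CPM with NeuroD1 (log2 fold change 1.33, SE 0.31). Stab1, a scavenger receptor of macrophages, had a log2 fold change of 1.57 (SE 0.39), and the edgeR adjusted p was 0.136 for all 3 genes. The synthase Has2 stood at 0.534 to 1.41 CPM with GFP and 1.35 to 3.24 CPM with NeuroD1, and Has1 had too few counts to be tested. The myeloid and cell cycle sums given above were also higher in all NeuroD1 libraries. The part of these cells in the levels of Hmmr, Cd44 and Stab1 was not tested.

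The list of proteoglycan breakdown holds 17 enzymes and the 4 Timp genes, which encode inhibitors of metalloproteinases. Of its 21 genes 10 were at an unadjusted p under 0.05 (47.6%, against 24.0% of all tested genes), with a median of 0.75 over the list. These were 7 enzymes, all higher, and 3 inhibitors, of which Timp1 and Timp2 were higher (log2 fold changes 0.82 and 0.84) and Timp4 was lower (-0.97). The 10 became 6 without GFP replicate 1. Mmp14, a membrane metalloproteinase, stood at 65.9, 63.0 and 84.5 CPM with GFP and 175, 308 and 99.2 CPM with NeuroD1 (log2 fold change 1.45, SE 0.39). Gusb and Arsb, lysosomal enzymes that trim chondroitin and dermatan sulfate, had log2 fold changes of 1.164 (SE 0.34) and 0.96 (SE 0.29). The edgeR adjusted p was 0.138, 0.14 and 0.141 in that order. Adamts4 and Adamts5, the aggrecanases that cut lecticans, had overlapping groups, at 21.9 to 34.6 CPM against 28.9 to 45.2 for Adamts4 and 4.86 to 6.41 against 4.76 to 10.8 for Adamts5. Lysosomal genes are abundant in macrophages and microglia. The infiltrating myeloid sums given above were higher in all NeuroD1 libraries. Summed microglia markers overlapped between groups (2549 to 3035 CPM with GFP and 2987 to 4385 with NeuroD1). The part of these cells in the enzyme levels was not tested.

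Receptors that read the matrix, and partners of Ptprz1, had 7 of 23 at an unadjusted p under 0.05 (30.4%), with a median of 0.50. All 7 were higher, and 12.5% of all tested genes were higher at that threshold (24.0% in either direction). The 7 became 14 without NeuroD1 replicate 2. Itgav, an integrin chain that binds tenascin-C, stood at 105, 60.5 and 67.6 CPM with GFP and 272, 373 and 166 CPM with NeuroD1 (log2 fold change 1.80, SE 0.35). Itga9, another integrin chain that binds tenascin-C, had a log2 fold change of 0.90 (SE 0.25), and the semaphorin receptor Nrp1 of 1.41 (SE 0.37). The edgeR adjusted p was 0.136 for Itgav, 0.139 for Itga9 and 0.137 for Nrp1. The chondroitin sulfate receptor Ptprs, through which the chains stall axons, had overlapping groups, at 501 to 614 CPM with GFP and 319 to 508 CPM with NeuroD1 (log2 fold change -0.37, SE 0.26). The Ptprz1 ligand Ptn also overlapped, at 215 to 393 CPM against 262 to 348. The list of other chondroitin sulfate proteoglycans also holds Smoc2 and the tenascin genes Tnxb and Tnn. Of its 12 tested genes 5 were at an unadjusted p under 0.05 (41.7%), all higher, with a list median of 0.68. Of all tested genes, 12.5% were higher at that threshold and 24.0% were past it in either direction. The 5 became 2 without GFP replicate 2 or 3 or NeuroD1 replicate 1 or 2, and 3 without GFP replicate 1. The smallest p values there were those of the fibroblast proteoglycan Dcn (log2 fold change 1.58, SE 0.49), the matricellular gene Smoc2, a relative of the testicans (0.66, SE 0.25) and the endothelial thrombomodulin gene Thbd (0.84, SE 0.32), with edgeR adjusted p of 0.141, 0.17 and 0.173.

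**Figure D5:**
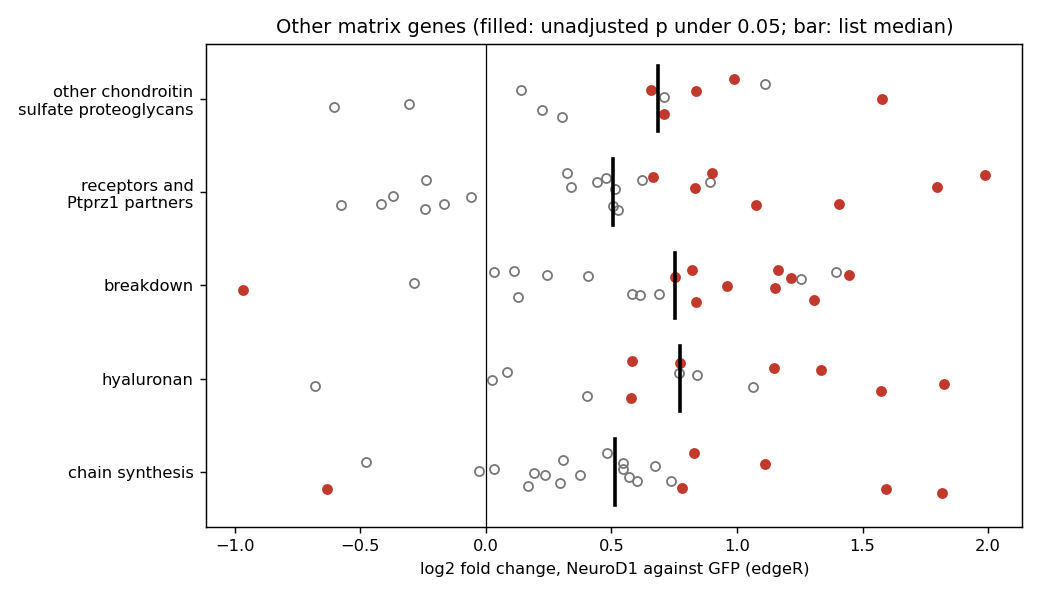
Log2 fold change, NeuroD1 against GFP (x axis), of each tested gene of the 5 lists of other matrix genes, filled where the unadjusted edgeR p was under 0.05, with a bar at the list median. All 5 medians lie above 0, between 0.50 and 0.77, and 2 filled genes lie below 0.

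The genes whose profile over the 6 libraries was most like that of a member were found by the root mean square difference of centred log2 CPM among 12550 genes. For Acan they were Zfpm2 (0.13), Sema5a (0.15) and Foxn3 (0.16), and for Tnc they were Zdhhc21 (0.078), Tmem68 (0.085) and Fam69a (0.11). None of these belongs to a matrix list used here.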

How the data were processed

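RNA-seq of 6 cortex samples was used. The authors deposited 1 table of unnormalized counts, which featureCounts had assigned to gene symbols of an mm10 annotation, per the file headers. The submitters' processing notes name HISAT2 2.0.1, DESeq2 1.16.1 and GRCm38, with no roles. The sources used here give no strand or multi-mapping setting, so antisense reads over Vcan, Hapln1, Tnr and Tnc could not be separated. Columns were matched by the sample description, and samples grouped by title.

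Counts were tested with edgeR 4.0.16 (quasi-likelihood F-test, TMM scaling, R 4.3.3) with treatment as the only term. Genes were kept by filterByExpr (minimum count 10, total 15). P-values were adjusted by Benjamini-Hochberg across the 14852 genes tested and called below 0.05. SEs were derived from the F statistic. Exon lengths and gene positions came from GENCODE M21 on GRCm38. 1 count equals 0.0744 to 0.129 CPM, so genes under 1 CPM are imprecise.

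Named genes were Neurod1, the 10 members, the 3 smallest p values of each matrix list, 6 fixed markers and the 3 most similar profiles to Acan and to Tnc. Hapln3, Slc17a7, Timp1, Timp2, Timp4, Mbp, Mobp, Cldn11, Aldoc, Gja1, Has1, Has2, Adamts4, Adamts5, Ptprs, Ptn, Rn45s, Tnxb and Tnn were added after their values were seen. The members and lists were chosen with earlier results of these data known. Alternatives were DESeq2 1.42.0, limma-voom 3.58.1, other scalings and filters, a replicate block and leaving out each library. Offsets for transcript length and GC (natural splines, 4 degrees of freedom, 96.5% of genes with a length) and DESeq2 with each library left out were added after the data were seen. The tests were tested on simulated data.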

Additional observations from a re-analysis of the deposited data

How the results depend on the processing

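Bcan, Vcan and Hapln2 kept an unadjusted p under 0.05 in all 6 edgeR fits with a library left out, and 7 of the 10 members kept their sign under every alternative tried. The count of members at that threshold was 3 to 5 with a library left out, the lowest count coming without GFP replicate 2 and without NeuroD1 replicates 1 and 3. The count over all genes ranged from 1804 (without GFP replicate 2) to 4374 (without NeuroD1 replicate 3), with 1891 when GFP replicate 3 was left out and 2015 when NeuroD1 replicate 1 was. Genes past an adjusted p of 0.05 numbered 0 or 1 in these fits, 1404 with DESeq2 and 479 with a replicate block. DESeq2 with a library left out gave 147 (without GFP replicate 2) to 2424 genes (without NeuroD1 replicate 3), with 235 without GFP replicate 3 and 247 without NeuroD1 replicate 1. These fits gave 2134 to 4435 genes at an unadjusted p under 0.05 and 3 to 5 members. DESeq2 then called Bcan in 4 of 6 fits and Vcan and Hapln2 in 3 of 6. None of the 3 was called without GFP replicate 2 or without NeuroD1 replicate 1. The deviations of same-numbered libraries correlated at 0.54, 0.37 and 0.039, and those of differently numbered libraries at -0.47 to 0.13. The labels do not say that the numbers pair samples, so the main test left pairing out. Whether they do was not settled here. With the replicate block the edgeR adjusted p was 0.0447 for Hapln2, 0.0532 for Vcan, 0.0558 for Bcan, 0.0599 for Tnr and 0.0774 for Tnc. It was 0.201 or more for the other members.

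Among the members, signs changed for Ncan, Hapln4 and Hapln1. Ncan was -0.027 with upper quartile scaling, -0.048 with the length and GC offsets and -0.13 to 0.36 with a library left out. Hapln4 was -0.014 with limma-voom, -0.0019 with the replicate block and -0.17 to 0.44 with a library left out. Hapln1 was -0.083 with the offsets. The cause was not tested. With a library left out, genes at an unadjusted p under 0.05 numbered 3 to 10 for chain synthesis, 4 to 8 for hyaluronan, 6 to 13 for breakdown, 5 to 14 for receptors and 2 to 7 for other proteoglycans. Other proteoglycans numbered 3 with upper quartile scaling, receptors 11 with the replicate block and hyaluronan genes 3 with the offsets. The member median lay between 0.17 and 0.64 with a library left out, and was 0.18 with the offsets.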
